A study of Mus musculus with 20 samples.

Results

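The genes of peroxisome assembly and peroxisomal fatty acid oxidation were examined in livers from mice with and without *Cideb*. The set was a fixed list of 36 gene symbols out of 50559 genes in the count table, and all 36 were found and passed the filter on low counts in every comparison. It held 13 *Pex* genes, which build peroxisomes, and 23 genes for peroxisomal enzymes and transporters. RNA was sequenced from 20 livers of *Cideb* fl/fl mice, 5 in each of 4 groups. WT mice received AAV-TBG-GFP and KO mice received AAV-TBG-Cre, and the TBG promoter limits expression of Cre to hepatocytes, so other liver cells of a KO liver keep the gene. Mice ate a Western diet (WD, rich in sugar, fat and cholesterol, with sugar in the water) or CDA-HFD, a choline-deficient high-fat diet. The sample labels give 3 months for both diets, whereas the study's text gives WD a longer feeding than CDA-HFD. Diet, feeding time and cohort therefore cannot be told apart. The labels give neither age nor sex.

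Peroxisomes are small organelles that shorten very long and branched fatty acids, make bile acid precursors and break down the hydrogen peroxide that their oxidases release. Their enzymes are made in the cytosol and carried in by import receptors, which dock at the membrane and are then recycled. In the mouse liver, many genes of peroxisomal fatty acid oxidation respond to PPARα, a nuclear receptor activated by fatty acids. Hepatocytes are rich in peroxisomes.

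Each library held between 11697049 and 16827147 reads counted on genes. Levels are CPM, the reads of a gene relative to all reads counted in its library, after scaling by the trimmed mean of M values (TMM), called normalized CPM below, and errors of levels are SD over 5 livers. *Cideb* was at 6.06 ± 1.12 normalized CPM in WT livers on WD and at 3.05 ± 0.653 on CDA-HFD, against 0.155 and 0.163 in KO livers. Every KO liver thus lay below every WT liver of its diet, and all 10 hepatocyte markers were detected in every group. One KO liver on CDA-HFD, number 5, lay apart: on the leading principal component of the CDA-HFD livers it sat at -41.4, inside the WT range of -63.1 to -7.24, while the other 4 KO livers sat between 42.7 and 65.5. It kept the low *Cideb* count of its group, and the calls that changed without it are given below.

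Relative abundance within the set was compared per kilobase of exon in WT livers on WD. *Cat*, which encodes catalase, stood highest at 983 ± 152 CPM per kb, followed by the thiolase gene *Acaa1b* at 957 ± 95.8. The spread of these neighbours overlapped. *Scp2*, a sterol carrier protein and thiolase, was at 632 ± 38.7 and *Phyh*, which starts alpha-oxidation of phytanic acid, at 608 ± 75.7 CPM per kb, and these also lay within each other's spread. *Ehhadh* followed at 234 ± 30.8 and *Hsd17b4* at 204 ± 15.2 CPM per kb. Both encode bifunctional enzymes of the beta-oxidation spiral. Assembly genes were lower than these enzyme genes, from *Pex10* at 2.21 to *Pex5* at 56.0 and *Pex11a* at 66.5 CPM per kb. Of the other enzyme and transporter genes, *Decr2*, *Abcd3*, *Crot* and *Pecr* lay above that range. The rest lay within it, such as *Acox3* at 3.79 and *Pipox* at 65.7 CPM per kb.

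The question of whether loss of *Cideb* in hepatocytes altered these genes under CDA-HFD was addressed by comparing 5 KO with 5 WT livers. Of the 36 genes, 13 were higher in KO livers and 0 were lower at an adjusted p under 0.05 (edgeR quasi-likelihood test with Benjamini-Hochberg adjustment over all 17204 genes tested). Among all genes tested, 8.19% passed as higher and 7.29% as lower. The 13 comprised 7 of 13 assembly genes and 6 of 23 enzyme and transporter genes. That split depended on the fit. It was 7 and 16 with DESeq2, 11 and 19 without KO liver 5, and 3 and 4 with scaling by library size alone. With DESeq2, 2242 of 17204 genes passed as higher, and the values over all genes for the other fits are given below. The median log2 fold change was 0.53 over the assembly genes and 0.61 over the enzymes and transporters, beside 0.01 over all genes, and 34 of 36 genes had a positive value. An unadjusted p under 0.05 was reached by 27 of 36 genes, against 35.3% of all genes. By the exact two-sided permutation test of single genes, 25 of 36 had p under 0.05, against 32.1% of all genes.

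These counts depended on single livers and on scaling. Without KO liver 5, 30 of 36 genes were higher, where 19.6% of all genes passed as higher. Compared with the fit of all 10 livers, the 17 genes gained were *Pex7*, *Pex10*, *Pex13*, *Pex19*, *Abcd3*, *Ehhadh*, *Acaa1b*, *Scp2*, *Decr2*, *Amacr*, *Phyh*, *Acot4*, *Nudt7*, *Nudt12*, *Crat*, *Cat* and *Pipox*. Their edgeR adjusted p-values without KO liver 5 lay between 0.00408 for *Cat* and 0.0436 for *Pex10*, and *Pex2*, *Pex3*, *Abcd2*, *Acox3*, *Nudt19* and *Crot* did not pass in either fit. Leaving out certain other livers lowered the calls among the members and among all genes. Without KO liver 1, KO liver 3 or WT liver 3, 3 genes passed in each case (*Pex16*, *Hacl1* and *Acot8*), where 2.05%, 2.05% and 2.17% of all genes passed as higher. Without KO liver 2 there were 4 (2.94% of all genes), without WT liver 5 there were 5 (2.53%) and without WT liver 1 there were 6 (3.96%). Scaling by library size alone moved the median of all genes from 0.01 to -0.19 and the share of higher calls among all calls from 52.9% to 30.3%. With that scaling 7 members passed, all higher, where 517 of 17204 genes passed as higher, against 1409 with TMM. A positive value was held by 31 of 36 members, and the medians became 0.34 for assembly genes and 0.41 for enzymes and transporters.

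**Figure D1:**
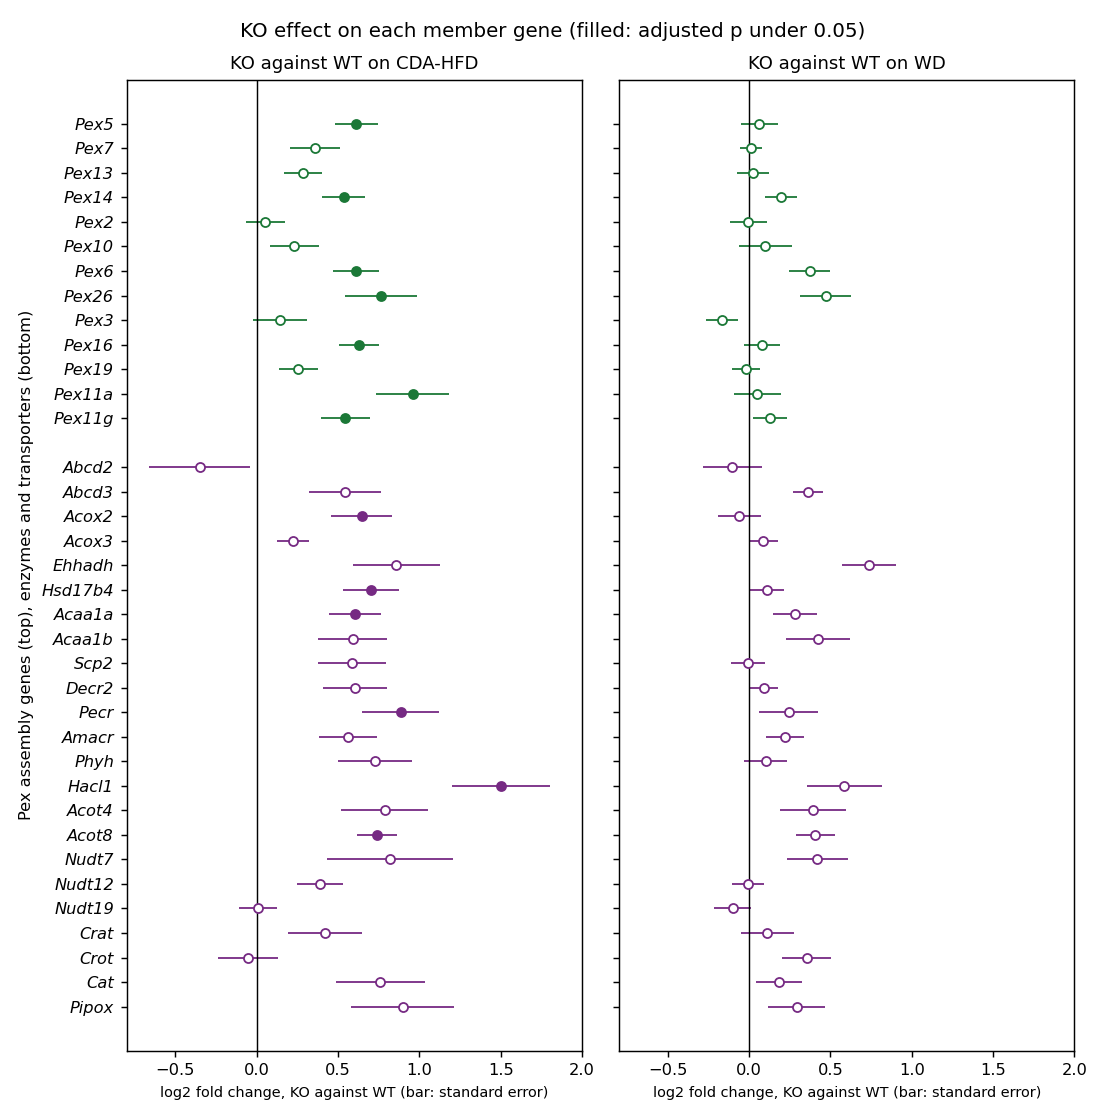
Log2 fold change of KO against WT (x axis, log2 scale; bars are standard errors) for each of the 36 genes on CDA-HFD (left) and on WD (right), with assembly genes in green above enzymes and transporters in purple. Filled points passed at an adjusted p under 0.05: 13 genes on CDA-HFD and 0 on WD.

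Among the assembly genes, the most stable call was *Pex16*, which acts in the insertion of peroxisomal membrane proteins. *Pex16* (GRCm38 chr2:92374676-92381217, plus strand) measured 60.1, 54.1, 62.5, 48.6 and 48.9 normalized CPM in KO livers 1 to 5 on CDA-HFD. In WT livers 1 to 5 it measured 37.0, 38.5, 32.6, 41.1 and 27.9. Every KO liver, number 5 included, lay above every WT liver. The log2 fold change was 0.63 with a standard error of 0.12 (edgeR adjusted p = 0.0137), and the exact permutation test gave p = 0.00794, the smallest that 5 against 5 livers allow. Every gene whose groups do not overlap gets that p. *Pex16* passed in all 10 fits that left out 1 liver. An antisense gene overlaps 7.15% of its exon bases.

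*Pex11a*, which promotes elongation and division of peroxisomes, had the largest fold change of the assembly genes. It measured 179, 137, 138, 150 and 79.4 normalized CPM in KO livers 1 to 5, and 49.95, 76.9, 78.3, 91.3 and 54.0 in WT livers on the same diet. KO liver 5 fell inside the WT range and the other 4 KO livers lay above it. The log2 fold change was 0.96 with a standard error of 0.22 (edgeR adjusted p = 0.0217), and without KO liver 5 it was 1.10 (adjusted p = 0.000835). Its relative *Pex11g*, also linked to division, rose by a log2 fold change of 0.55 (SE 0.15, edgeR adjusted p = 0.0366). For *Pex11g*, 41.1% of exon bases lie under an antisense gene that the count table does not hold.

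The main import receptor and its docking partner moved by similar amounts. *Pex5*, the receptor for most peroxisomal enzymes, averaged 165 ± 25 in KO and 108 ± 14.3 normalized CPM in WT livers on CDA-HFD, with no overlap between 124.6 to 185.0 and 88.4 to 122.3. Its log2 fold change was 0.61 (SE 0.13, edgeR adjusted p = 0.0179). *Pex14*, at which loaded receptors dock, averaged 44.4 ± 7.16 against 30.6 ± 4.06, and KO liver 5 at 34.3 overlapped the WT range. Its log2 fold change was 0.53 (SE 0.13, edgeR adjusted p = 0.0263), and 28.3% of its exon bases overlap an antisense gene. The second receptor *Pex7* had a log2 fold change of 0.36 (edgeR adjusted p = 0.122), and the docking gene *Pex13* 0.29 (edgeR adjusted p = 0.108).

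For receptor recycling, *Pex6*, an ATPase that pulls receptors out of the membrane, averaged 103 ± 14.8 in KO and 67.0 ± 11.3 normalized CPM in WT livers on CDA-HFD. The KO livers lay between 81.4 and 118.6 and the WT livers between 49.1 and 80.2, so the groups did not overlap. The log2 fold change of *Pex6* was 0.61 (SE 0.14, edgeR adjusted p = 0.0213). *Pex26*, its membrane anchor, rose by 0.76 (SE 0.22, edgeR adjusted p = 0.0419), with KO liver 5 inside the WT range. *Pex2* and *Pex10*, which encode members of the ubiquitin ligase ring, had log2 fold changes of 0.05 and 0.23 (edgeR adjusted p = 0.774 and 0.29), and without KO liver 5 *Pex10* passed at 0.34 (adjusted p = 0.0436). *Pex3* at 0.14 and *Pex19* at 0.26, which work with *Pex16* at the membrane, did not pass either (edgeR adjusted p = 0.557 and 0.159). Scaling by library size alone turned the value of *Pex2* to -0.14 and that of *Pex3* to -0.06.

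The largest change among all 36 genes on CDA-HFD was in *Hacl1*, whose product cleaves 2-hydroxyacyl-CoAs in alpha-oxidation. *Hacl1* (GRCm38 chr14:31598730-31641286, minus strand) measured 104, 88.7, 131, 181 and 75.4 normalized CPM in KO livers 1 to 5. In WT livers 1 to 5 it measured 40.0, 38.6, 48.8, 58.0 and 19.1. All KO livers lay above all WT livers, and the group means were 116 ± 41.9 and 40.9 ± 14.5. The log2 fold change was 1.5 with a standard error of 0.30 (edgeR adjusted p = 0.0147, exact permutation p = 0.00794), and *Hacl1* passed in all 10 fits without 1 liver. Another annotated gene on the same strand shares 25.7% of the 75-base windows of *Hacl1*, and 33.3% of its exon bases overlap other genes, so its level is uncertain to that extent. *Phyh*, which acts upstream of *Hacl1* in the same pathway, averaged 1153 ± 264 against 694 ± 189, a log2 fold change of 0.73 (SE 0.23, edgeR adjusted p = 0.0511).

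*Acot8*, a thioesterase that releases fatty acids from CoA inside peroxisomes, had the smallest p of the set. *Acot8* (GRCm38 chr2:164792765-164804882, minus strand) measured 15.1, 14.6, 12.8, 12.8 and 10.7 normalized CPM in KO livers 1 to 5 on CDA-HFD. WT livers 1 to 5 measured 8.33, 7.47, 8.62, 8.33 and 6.75, so the groups did not overlap. The log2 fold change was 0.74 with a standard error of 0.12 (edgeR adjusted p = 0.00955), and the call held in all 10 fits without 1 liver. An antisense gene overlaps 12.3% of its exon bases. The other genes listed under the same role as *Acot8* did not pass. *Nudt7*, a CoA diphosphatase, had a larger value than *Acot8*, at 0.82, with a standard error of 0.39 (edgeR adjusted p = 0.154), and the related *Nudt19* had 0.01 (SE 0.12). *Acot4*, a thioesterase for dicarboxylic acids, had 0.79 (SE 0.27, edgeR adjusted p = 0.0667). *Nudt12*, *Crat* and *Crot* had 0.39, 0.42 and -0.05 (edgeR adjusted p = 0.0796, 0.212 and 0.861). *Crat* and *Crot* transfer acyl groups to carnitine for export.

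**Figure D2:**
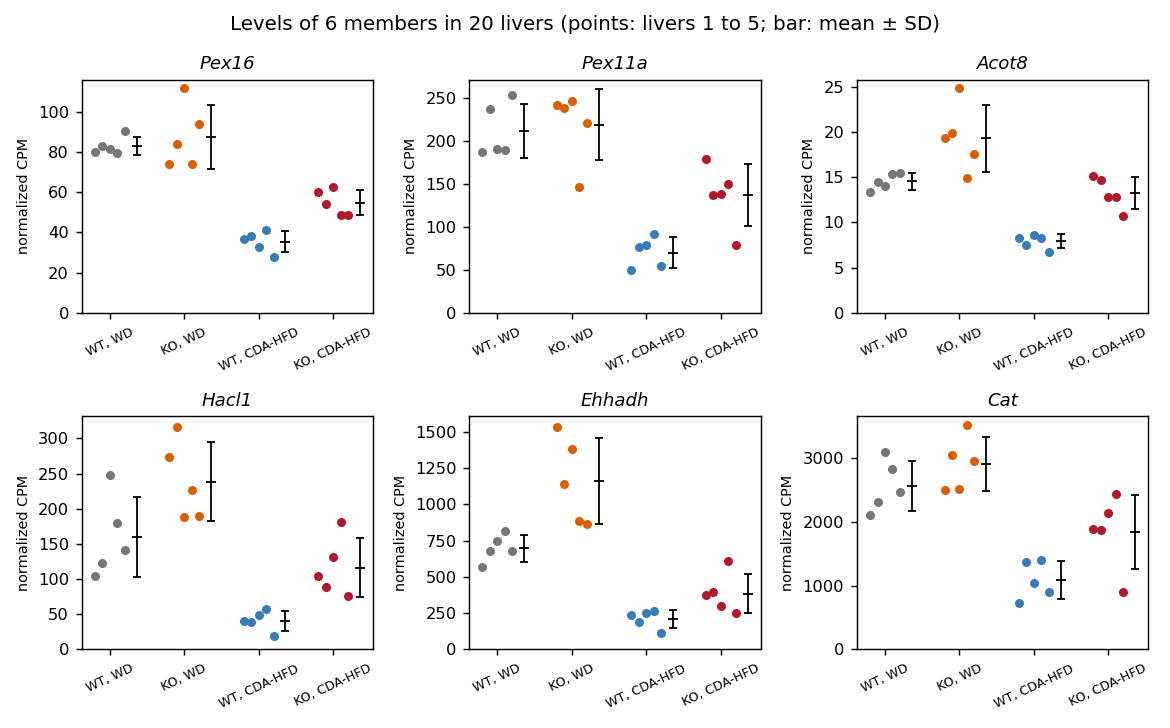
Normalized CPM (y axes, starting at 0) of *Pex16*, *Pex11a*, *Acot8*, *Hacl1*, *Ehhadh* and *Cat* in the 20 livers, with livers 1 to 5 of each group from left to right and the mean ± SD beside them. On CDA-HFD all KO livers lie above all WT livers for *Pex16*, *Acot8* and *Hacl1*, and KO liver 5 falls in the WT range for *Pex11a*, *Ehhadh* and *Cat*.

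Within the beta-oxidation spiral, 3 of 7 genes passed on CDA-HFD, where 8.19% of all genes passed as higher. *Hsd17b4*, the bifunctional enzyme for branched fatty acids and bile acid precursors, had a log2 fold change of 0.70 (SE 0.17, edgeR adjusted p = 0.0241). It was at 484.8 to 522.5 normalized CPM in 4 KO livers but at 296 in KO liver 5, within the WT range of 222.9 to 339.2. *Acox2*, the oxidase for the same substrates, rose by 0.65 (SE 0.19, edgeR adjusted p = 0.0415), with KO levels from 113.6 to 200.9 and WT levels from 79.6 to 120. *Acaa1a*, a thiolase, rose by 0.61 and is described below with its paralog. *Scp2*, which shares 25.6% of its 75-base windows with annotated copies, had 0.59 (SE 0.21, edgeR adjusted p = 0.0772) and *Acox3* 0.22 (SE 0.10, edgeR adjusted p = 0.138).

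*Ehhadh*, the bifunctional enzyme for straight-chain fatty acids, lay next to the threshold. It measured 375, 395, 296, 608 and 253 normalized CPM in KO livers 1 to 5 on CDA-HFD and 236, 191, 251, 266 and 115 in WT livers. Only KO liver 5 fell within the WT range. The log2 fold change was 0.86 with a standard error of 0.27 (edgeR adjusted p = 0.0509), and DESeq2 gave an adjusted p of 0.0138. *Cat* measured 1893, 1881, 2146, 2442 and 898 normalized CPM in KO livers 1 to 5, against 722, 1367, 1038, 1409 and 910 in WT livers. Here KO liver 5 was lower than 4 of 5 WT livers. Its log2 fold change was 0.76 (SE 0.27, edgeR adjusted p = 0.0787), and 0.94 without KO liver 5 (adjusted p = 0.00408).

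Among the remaining enzymes, *Pecr*, a reductase for trans-2-enoyl-CoAs, rose by a log2 fold change of 0.89 (SE 0.24, edgeR adjusted p = 0.0322). Its KO livers lay between 50.2 and 118 normalized CPM and its WT livers between 32.9 and 64.9. *Decr2*, a reductase for polyunsaturated fatty acids, had 0.60 (SE 0.20, edgeR adjusted p = 0.0578), and *Amacr*, a racemase for branched acyl-CoAs, 0.56 (SE 0.18, edgeR adjusted p = 0.0532). *Pipox*, which oxidizes pipecolic acid and sarcosine, had 0.90 (SE 0.32, edgeR adjusted p = 0.0727). Of the transporters for fatty acyl-CoAs, *Abcd3* had 0.54 (SE 0.22, edgeR adjusted p = 0.109) and *Abcd2* -0.35 (SE 0.31, edgeR adjusted p = 0.438). *Abcd2* and *Crot* were the 2 genes with a negative value.

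In the CDA-HFD comparison, 5 of 36 genes had all KO livers above all WT livers, namely *Pex5*, *Pex6*, *Pex16*, *Hacl1* and *Acot8*. Of all genes tested, 5.03% were higher without overlap. KO liver 5 had the lowest value of its group for the average of both gene classes. Averaged as log2 CPM relative to the WT mean on WD, the assembly genes were at -0.77 in KO liver 5 and between -0.32 and -0.20 in the other KO livers. The enzymes and transporters were at -1.09 in that liver and between -0.42 and -0.16 in the others. The WT livers on CDA-HFD ranged from -1.04 to -0.60 for assembly genes and from -1.47 to -0.70 for enzymes and transporters.

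**Figure D3:**
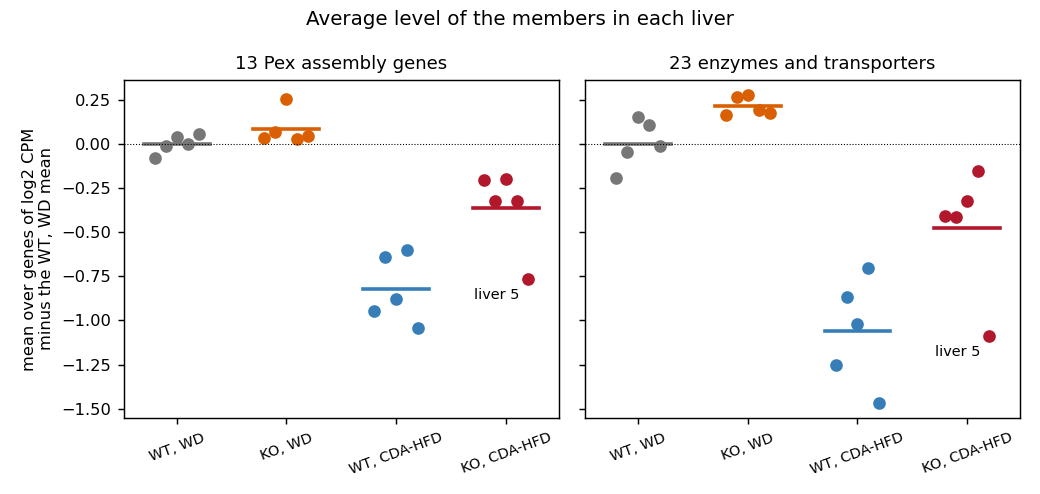
Mean over genes of log2 CPM minus the WT mean on WD (y axis, log2 scale) in each of 20 livers, for the 13 assembly genes (left) and the 23 enzymes and transporters (right), with lines at group means. KO liver 5 on CDA-HFD sits inside the WT range at -0.77 and -1.09, and the other 4 KO livers lie above all 5 WT livers.

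Marker genes of other liver cells moved with these differences, and their part in them was not tested. In whole liver, fewer cells of a type and less RNA per cell cannot be told apart. For KO against WT on CDA-HFD, 8.19% of all genes tested passed as higher and 7.29% as lower. On CDA-HFD, 11 of 23 macrophage markers were lower in KO livers, with a median log2 fold change of -1.03, and *Cd14*, a receptor for bacterial products, fell by 1.43 on the log2 scale (edgeR adjusted p = 0.0178). Their summed level was 1200 to 4030 normalized CPM in KO and 3350 to 6550 in WT livers, with all 23 markers detected. Of 19 tested stellate cell markers, 4 were lower and 1 was higher, the latter being *Ecm1* with a log2 fold change of 0.69 (edgeR adjusted p = 0.00822). Their sum ranged from 1950 to 5560 in KO and from 3270 to 5370 in WT livers. Of 9 tested cholangiocyte markers 1 was lower, *Anxa4* with a log2 fold change of -0.70 (edgeR adjusted p = 0.0177), with sums of 148 to 785 in KO and 487 to 956 in WT livers.

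No endothelial or lymphocyte marker passed. The summed endothelial level was 871 to 1280 in KO and 877 to 1000 normalized CPM in WT livers, with *Egfl7* nearest to the threshold at a log2 fold change of 0.46 (edgeR adjusted p = 0.0562). The lymphocyte sum was 24.7 to 62.6 in KO and 29.7 to 51.9 in WT livers, with *Cd79b* at a log2 fold change of -0.81 (edgeR adjusted p = 0.122) and 2 of 20 markers without a count in either group. Of 10 hepatocyte markers, 3 were higher in KO livers, where 8.19% of all genes passed as higher. The median over the 10 was 0.70, and *Tdo2*, a tryptophan-degrading enzyme, led at a log2 fold change of 1.14 (edgeR adjusted p = 0.0122). The sum of the 10 hepatocyte markers was 34300 to 98900 in KO and 31300 to 68600 in WT livers. KO liver 5 held the highest macrophage, stellate, cholangiocyte and lymphocyte sums of the KO group, and the lowest hepatocyte and endothelial sums.

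Further peroxisomal genes from a list of 52 moved in both directions. Of 47 tested on CDA-HFD, 13 were higher and 2 lower in KO livers, with a median log2 fold change of 0.41. Of all genes tested, 8.19% passed as higher and 7.29% as lower. The smallest p belonged to *Xdh*, which encodes xanthine dehydrogenase of purine breakdown, at 503.8 to 559.1 normalized CPM in KO and 308.5 to 323.7 in WT livers. Its log2 fold change was 0.74 (SE 0.08, edgeR adjusted p = 0.00279), and KO liver 5 at 533.5 lay with its group. The 2 that fell were *Agps*, by 0.54 (SE 0.14, edgeR adjusted p = 0.0312), and *Far1*, by 1.04 (SE 0.28, edgeR adjusted p = 0.0309), named here after their values were seen. Both act in the synthesis of ether lipids. For *Agps*, the study reports higher mRNA by qPCR in KO livers on both diets, the opposite of the direction here on CDA-HFD. Of 24 genes listed as PPARα and its targets outside peroxisomes, 5 were higher and 0 lower, beside the same shares of all genes. The 5 were led by *Acot1*, a cytosolic thioesterase, at a log2 fold change of 2.32 (SE 0.41, edgeR adjusted p = 0.0121).

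On WD, the same comparison of KO with WT livers gave 0 of 36 genes past the threshold (edgeR, 15848 genes tested), where 0.0757% of all genes passed in either direction. An unadjusted p under 0.05 was reached by 8 of 36 genes, against 10.7% of all genes, and 28 of 36 had a positive value. The median log2 fold change was 0.06 over assembly genes and 0.22 over enzymes and transporters, beside 0.01 over all genes. The exact permutation test gave p under 0.05 for 5 of 36 genes, against 9.73% of all genes. DESeq2 called 2 members, *Ehhadh* and *Abcd3*, where it called 1.03% of all genes.

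*Ehhadh* and *Abcd3* were also the 2 genes whose groups did not overlap on WD, where 1.14% of all genes were higher without overlap. *Ehhadh* measured 1534, 1143, 1381, 887 and 866 normalized CPM in KO livers 1 to 5 on WD, and 572, 675, 746, 818 and 677 in WT livers. Its log2 fold change was 0.74 (SE 0.17, edgeR adjusted p = 0.169, DESeq2 adjusted p = 0.00639). *Abcd3*, which carries dicarboxylic and branched acyl-CoAs into peroxisomes, measured 985, 1075, 994, 960 and 932 in KO and 658, 790, 866, 791 and 753 in WT livers. Its log2 fold change was 0.36 (SE 0.09, edgeR adjusted p = 0.239, DESeq2 adjusted p = 0.00682). Groups of 5 livers that do not overlap always give an exact permutation p of 0.00794, so that test adds nothing for these 2 genes.

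The genes that changed on CDA-HFD had mixed values on WD. *Hacl1* had a log2 fold change of 0.59 (SE 0.23, edgeR adjusted p = 0.404), with KO livers from 188 to 316 normalized CPM and WT livers from 105 to 248. *Acot8* had 0.41 (SE 0.12, edgeR adjusted p = 0.288). *Pex26* had 0.47 (SE 0.16, edgeR adjusted p = 0.323) and *Pex6* 0.37 (SE 0.13, edgeR adjusted p = 0.325). *Pex16* had 0.08, *Pex11a* 0.05, *Pex5* 0.06 and *Acox2* -0.06, each smaller than its standard error of 0.11, 0.14, 0.11 and 0.13.

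Whether the KO effect differed between the diets was tested directly as an interaction over all 20 livers. It passed for 0 of 36 genes (edgeR, 17804 genes tested), where 0.556% of all genes passed in either direction. An unadjusted p under 0.05 was reached by 14 of 36 genes, against 15.4% of all genes, and 34 of 36 values were positive. A positive value means a more positive log2 fold change of KO against WT on CDA-HFD than on WD, whatever its size on either diet. With scaling by library size alone, 27 of 36 were positive. *Pex16* had an interaction of 0.55 (SE 0.17, edgeR adjusted p = 0.131) and *Pex11a* of 0.91 (SE 0.28, edgeR adjusted p = 0.134), while *Ehhadh* had 0.13 (SE 0.33) and *Acaa1b* 0.17 (SE 0.31). Without KO liver 5 on CDA-HFD, 10 of 36 genes passed, where 11.9% of all genes did. These 10 were 4 assembly genes and 6 enzymes, among them *Pex11a* at 1.06 (adjusted p = 0.00984) and *Hsd17b4* at 0.72 (adjusted p = 0.00938).

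The diets themselves were compared within WT livers. On CDA-HFD, 31 of 36 genes were lower than on WD and 0 were higher (edgeR, 16726 genes tested), where 25.2% of all genes passed as lower. They comprised 11 of 13 assembly genes and 20 of 23 enzymes and transporters. The median log2 fold change was -0.84 over assembly genes and -1.15 over enzymes and transporters, beside 0.00 over all genes. For 30 of 36 genes every liver on CDA-HFD lay below every liver on WD, which held for 17.8% of all genes. Scaling by library size alone moved the median of all genes to 0.42 and the share of higher calls from 50.7% to 85.3%. Then 27 members were lower, where 1570 of 16726 genes passed as lower. *Abcd2*, *Acox3* and *Crot* were higher, where 9120 of all genes passed as higher.

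By p-value, the leading genes were *Acaa1b* with a log2 fold change of -2.46 (SE 0.17), *Pex16* with -1.24 (SE 0.10), *Hsd17b4* with -1.32 (SE 0.12), *Crat* with -1.36 (SE 0.13), *Pex5* with -1.05 (SE 0.10) and *Pex7* with -0.96 (SE 0.10). Their edgeR adjusted p-values lay between 3.56e-06 and 3.14e-05. *Hacl1* fell by 1.97, *Ehhadh* by 1.73 and *Pex11a* by 1.60 on the log2 scale. The 5 genes that did not pass were *Pex2* at -0.19, *Pex10* at -0.24, *Abcd2* at 0.34, *Acox3* at 0.14 and *Crot* at 0.13. With library size alone, *Pex2* turned to 0.23, *Pex10* to 0.17 and *Nudt19* from -0.34 to 0.09. Markers of other cells moved with the diet as well. In WT livers on CDA-HFD, 17 of 23 macrophage markers were higher and 2 lower, 17 of 19 stellate cell markers higher and 1 lower, 9 of 9 cholangiocyte and 11 of 15 lymphocyte markers higher. Of the others, 9 of 16 endothelial and 6 of 10 hepatocyte markers were lower. Among all 16726 genes tested, 4335 passed as higher and 4207 as lower. The part of the markers in the result was not tested.

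In KO livers, 20 of 36 genes were lower on CDA-HFD than on WD and 0 were higher (edgeR, 16387 genes tested), where 7.85% of all genes passed as lower. They comprised 7 of 13 assembly genes and 13 of 23 enzymes and transporters, with medians of -0.41 and -0.55. In 18 of 36 genes the KO livers on CDA-HFD lay wholly below those on WD, which held for 7.14% of all genes. The smallest p-values belonged to *Acaa1b* with -2.29 (SE 0.26), *Abcd3* with -1.12 (SE 0.17), *Ehhadh* with -1.60 (SE 0.25), *Acot4* with -1.27 (SE 0.23), *Pex16* with -0.68 (SE 0.13) and *Scp2* with -0.90 (SE 0.18). Their edgeR adjusted p-values lay between 0.000339 and 0.00828. Without KO liver 2 on WD the count was 11, without KO liver 5 on WD 13 and without KO liver 2 on CDA-HFD 12. Among all genes, 803 of 16726, 873 of 16654 and 857 of 16518 passed as lower in these fits. With all 10 livers, 1286 of 16387 genes had passed as lower. Scaling by library size alone moved the median of all genes to 0.25 and the share of higher calls from 53.9% to 85.9%. It left 13 members lower and *Acox3* higher, where 553 of 16387 genes passed as lower and 3371 as higher. Cell type markers moved with the diet in KO livers too: 11 of 23 macrophage, 9 of 19 stellate cell, 4 of 8 cholangiocyte and 6 of 11 lymphocyte markers were higher on CDA-HFD. Of 16 endothelial markers 1 was higher and 1 lower, and of 10 hepatocyte markers 1 was lower. Among all 16387 genes tested, 1506 passed as higher and 1286 as lower. The part of the markers in the result was not tested.

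Set against the WT mean on WD, the median assembly gene stood at 56.3% in WT livers on CDA-HFD and at 79.5% in KO livers on that diet. The median enzyme or transporter stood at 45.3% and 72.9%. On WD the KO livers stood at 104% and 116%. *Acaa1b* was the lowest in both CDA-HFD groups, at 18.3% in WT and 27.6% in KO livers. *Hacl1* went from 25.7% in WT to 72.9% in KO livers and *Pex11a* from 33.1% to 64.6%. *Acot8* at 54.3% and 91.0%, *Pex6* at 64.5% and 98.8% and *Phyh* at 60.2% and 100% of the WT level on WD came closest to it among genes that had dropped below 70% in WT livers, together with *Pex26* at 54.1% and 92.0% and *Amacr* at 66.7% and 98.7%. These shares describe group means and carry no test beyond the comparisons above.

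**Figure D4:**
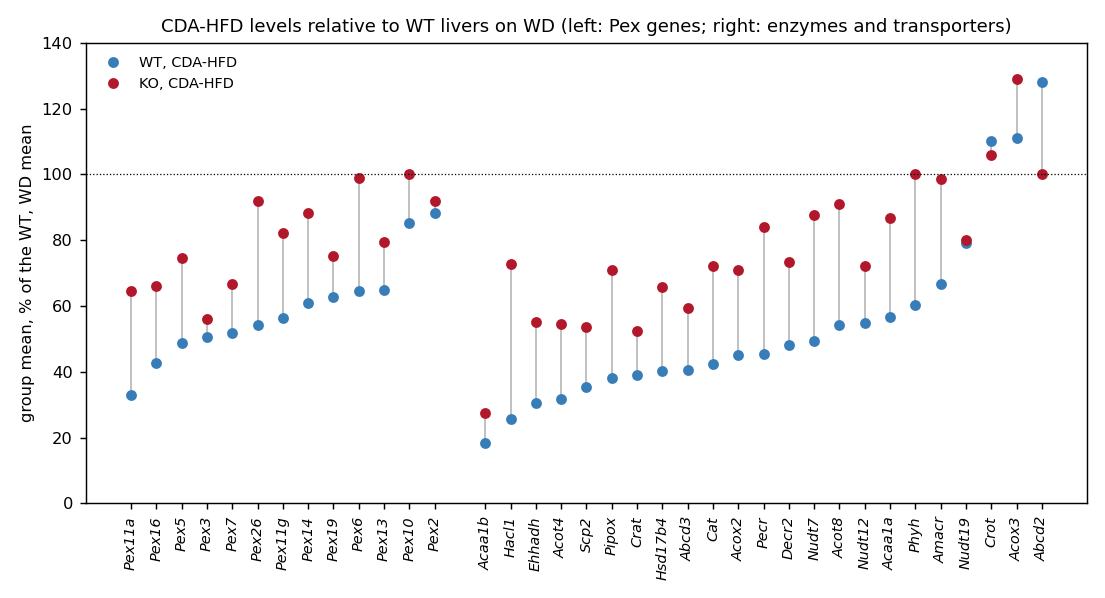
Group means of the 36 genes in WT (blue) and KO (red) livers on CDA-HFD, as a percentage of the WT mean on WD (y axis, starting at 0; the dotted line is 100%), sorted by the WT value within assembly genes (left) and enzymes and transporters (right). The red point lies above the blue one for 34 genes, from *Acaa1b* at 18.3% and 27.6% up to *Acox3* at 111% and 129%, and below it for *Abcd2* and *Crot*.

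The paralogs *Acaa1a* and *Acaa1b* both encode peroxisomal 3-ketoacyl-CoA thiolases, which carry out the last step of each beta-oxidation round. *Acaa1a* lies at GRCm38 chr9:119339676-119350299 on the plus strand and *Acaa1b* nearby at chr9:119148023-119157093 on the minus strand. They share 460 windows of 75 bases, which are 9.50% of those of *Acaa1a* and 24.4% of those of *Acaa1b*, so reads from the shared stretches cannot be assigned and the levels of both are uncertain to that extent. *Acaa1b* measured 534, 626, 487, 636 and 311 normalized CPM in KO livers 1 to 5 on CDA-HFD and 362, 372, 370, 392 and 221 in WT livers. KO liver 5 was lower than 4 of 5 WT livers, and its log2 fold change over all livers was 0.59 (SE 0.21, edgeR adjusted p = 0.0777). *Acaa1a* measured 172, 179, 187, 170 and 126 in KO and 113, 117, 111, 133 and 73.5 in WT livers. Only KO liver 5 lay within the WT range, and the log2 fold change was 0.61 (SE 0.16, edgeR adjusted p = 0.0304).

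The balance of the paralogs differed between the diets, and no difference between KO and WT passed a test. The log2 ratio of *Acaa1b* to *Acaa1a*, chosen for testing after the data were seen, was 3.28 ± 0.21 in WT and 3.39 ± 0.28 in KO livers under WD feeding. On CDA-HFD it was 1.65 ± 0.07 in WT and 1.60 ± 0.26 in KO livers. The diet difference was -1.64 in WT and -1.79 in KO livers, each with an exact permutation p of 0.00794 (0.0159 after Benjamini-Hochberg adjustment over the 4 comparisons). The KO difference was -0.04 on CDA-HFD (exact permutation p = 0.722) and 0.11 on WD (exact permutation p = 0.5). All 10 CDA-HFD livers had a lower ratio than all 10 WD livers.

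**Figure D5:**
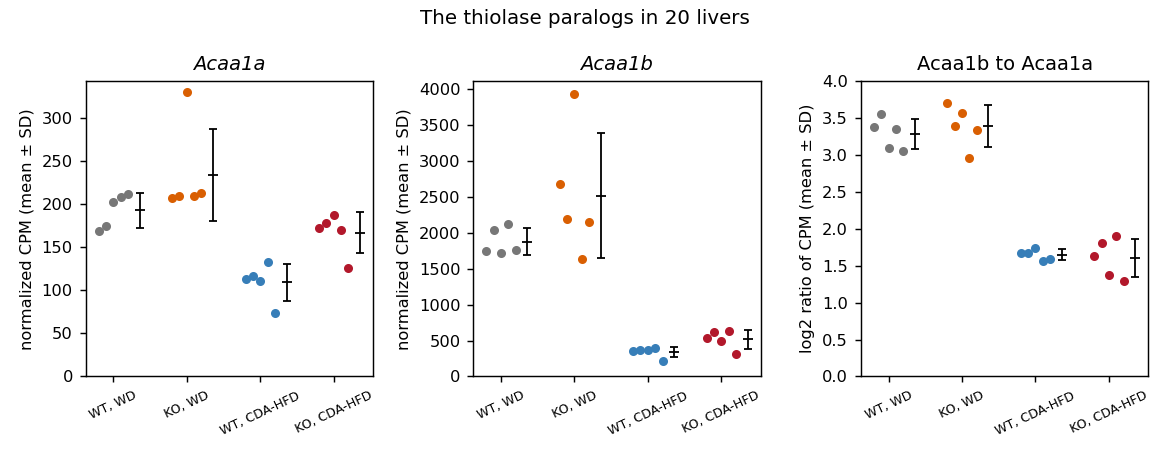
Normalized CPM of *Acaa1a* and *Acaa1b* (y axes, starting at 0) and the log2 ratio of *Acaa1b* to *Acaa1a* (y axis, log2 scale) in the 20 livers, with mean ± SD per group. The ratio averages 3.28 and 3.39 under WD and 1.65 and 1.60 under CDA-HFD (WT and KO).

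Promoters are shown for the thiolase paralogs, because their levels parted between diets, and for *Pex11a* and *Hacl1*, the assembly and enzyme genes with the largest KO change on CDA-HFD. The sequences are from RefSeq on GRCm38.p6, from 250 bases before to 50 bases after an annotated start, read 5′ to 3′ on the gene's strand. Capitals mark CCAAT and GGGCGG on either strand (ATTGG and CCGCCC on the reverse). The intervals are chr9:119341044-119341343 (plus) for *Acaa1a*, chr9:119157044-119157343 (minus) for *Acaa1b*, chr7:79743082-79743381 (minus) for *Pex11a* and chr14:31640916-31641215 (minus) for *Hacl1*.
Acaa1a: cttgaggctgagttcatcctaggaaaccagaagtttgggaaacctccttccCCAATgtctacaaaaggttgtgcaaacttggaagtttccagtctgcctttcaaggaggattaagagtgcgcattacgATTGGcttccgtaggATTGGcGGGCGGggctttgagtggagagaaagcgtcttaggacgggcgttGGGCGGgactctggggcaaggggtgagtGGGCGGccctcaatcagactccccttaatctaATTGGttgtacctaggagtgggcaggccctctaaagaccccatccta
Acaa1b: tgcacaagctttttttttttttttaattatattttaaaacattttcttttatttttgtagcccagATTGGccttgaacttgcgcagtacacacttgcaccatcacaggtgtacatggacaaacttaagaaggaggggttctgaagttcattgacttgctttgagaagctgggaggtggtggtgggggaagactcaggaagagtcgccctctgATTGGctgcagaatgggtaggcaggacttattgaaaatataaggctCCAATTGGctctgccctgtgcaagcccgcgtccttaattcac
Pex11a: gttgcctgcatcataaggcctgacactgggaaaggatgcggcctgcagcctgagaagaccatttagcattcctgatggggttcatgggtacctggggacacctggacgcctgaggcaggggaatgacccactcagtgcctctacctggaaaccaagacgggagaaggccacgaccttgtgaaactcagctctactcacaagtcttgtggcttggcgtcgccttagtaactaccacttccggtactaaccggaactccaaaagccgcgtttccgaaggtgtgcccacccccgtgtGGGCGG
Hacl1: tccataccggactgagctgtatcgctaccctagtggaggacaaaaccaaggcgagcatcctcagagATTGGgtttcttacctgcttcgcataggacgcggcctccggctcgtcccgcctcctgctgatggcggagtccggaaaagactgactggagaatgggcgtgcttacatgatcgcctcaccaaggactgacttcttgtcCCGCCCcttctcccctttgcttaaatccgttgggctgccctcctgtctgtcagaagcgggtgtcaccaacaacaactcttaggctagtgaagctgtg
The *Acaa1a* window holds both motifs, while the *Acaa1b* window holds CCAAT and no GGGCGG. The *Pex11a* window holds GGGCGG alone, at its downstream end, and the *Hacl1* window holds both.

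Promoter sequences were found for 29 of the 36 genes, as 35 windows. CCAAT was in 40.0% of these windows, against 37.4% of 32851 windows of the same length over all genes, and GGGCGG in 62.9% against 35.7%. The half-site AGGTCA, which nuclear receptors bind, was in 14.3% against 16.3%, in *Acot4*, *Cat*, *Pex11g*, *Phyh* and *Scp2*. CACGTG, an E-box, was in 2.86% against 7.15%, in *Acot4* alone. A pair of AGGNCA half-sites in tandem with 1 base between them, the form of element that PPARα and its partner bind, was in 0 of 35 windows and in 0.381% of all windows. All were searched on both strands, and a match or its absence describes only the letters in these windows.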

How the data were processed

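The authors deposited raw counts of reads per gene for 20 livers, which are whole numbers without normalization. The genome build mm10 is given in the submitters' processing notes. The aligner and counter are not given in the sources used here. The table ends with 5 entries for unassigned reads, which were left out of all fits. These held 20.7% to 28.8% of reads outside genes and 18.0% to 28.7% of reads aligned to several places, both relative to the reads of a library. The labels name a directional library kit and the study's methods another kit, so it is unknown whether counting used strand, and antisense overlaps are uncertain. Libraries of a group differed by 8.01 to 145 times the sampling noise, so none was a copy. Nothing in the labels says more of the livers than their number, and p-values measure the spread between them.

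Counts were fitted in R 4.3.3 with edgeR 4.0.16 (filterByExpr, TMM, quasi-likelihood F test) within each pair of groups, and over 20 livers for the interaction. The threshold was 0.05 on p adjusted by Benjamini-Hochberg over all genes tested. An exact permutation test (two-sided, on normalized CPM) was added for single members. The fits were repeated with DESeq2 1.42.0, RLE scaling, no scaling beyond library size, no filter, a minimum of 10 counts per library, a joint fit of 20 libraries, a replicate block and each liver left out. For averages over genes, log2 CPM had a prior count of 2. Scripts were tested on simulated data. Figures used Python 3.11.15 and matplotlib 3.10.9. Gene positions and overlaps came from GENCODE on GRCm38.

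Members and lists were chosen with earlier results of these data known. Values were given for members that passed for KO against WT and for the member of each role with the largest change on CDA-HFD. They were also given for the genes the study measured by qPCR and for up to 6 members per diet comparison by p. *Cideb* and the gene of each further list with the smallest p were added. Group levels were not given for all of these, such as *Pex11g* and *Pex26*.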

Additional observations from a re-analysis of the deposited data

Results flagged for a closer look

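In each group of 5 livers, a gene was singled out where 1 liver's gap to its nearest neighbour, as a share of the group's range, was above 0.71. This held in 9 of 144 combinations of gene and group, where chance gives about 1 in 20, or 7.20.

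In KO liver 5 on CDA-HFD, *Hsd17b4* (gap share 0.834), *Amacr* (0.817) and *Acaa1a* (0.724) were low, at 296, 77.5 and 126 normalized CPM against at least 484.8, 119 and 170.4 in the other KO livers. In KO liver 3 on WD, *Acaa1a* (0.949), *Pex6* (0.836) and *Pex10* (0.803) were high, at 330.3, 186.4 and 11.2 against at most 213.2, 126.6 and 7.45. That library also had the highest shares of unaligned reads, 6.82%, and of reads aligned to several places, 28.7%, and the part of these in the values was not tested. In KO liver 4 on WD, *Pex11a* was low (0.749), at 146.3 against 221.2 to 246.3, and *Pex7* was high (0.743), at 74.0 against 68.0 to 69.5. *Acaa1b* was low in WT liver 5 on CDA-HFD (0.822), at 221.2 against 361.7 to 392.1.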

How the results depend on the processing

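For KO against WT on CDA-HFD, 13 members passed, and the count moved to 7 with library size only, 23 with DESeq2 and 24 with all 20 libraries in 1 fit. It was 14 with RLE size factors, with no filter and with at least 10 counts in every library. Leaving out 1 liver gave 3 to 30. For KO against WT on WD, DESeq2 called 2 and leaving out 1 liver gave 0 to 1, the 1 being *Pex26* without KO liver 5. For the diets, leaving out 1 liver gave 31 in WT livers and 11 to 22 in KO livers, and for the interaction 0 to 10. Over all genes, DESeq2 called 4144 and all 20 libraries in 1 fit 4170 on CDA-HFD, against 2664. For the diets in KO livers, 803 and 1277 of all genes passed as lower in the fits that gave 11 and 22 members.

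The numbers were not taken to pair the livers, since nothing says that they do and not every same-numbered pair deviated together. Residuals of same-numbered livers correlated between -0.48 and 0.41 on CDA-HFD, over 0.1 in 3 of 5 pairs, and between -0.36 and 0.39 on WD, over 0.1 in 2 of 5. For the diets the range was -0.23 to 0.43 in WT livers (2 of 5) and -0.16 to 0.45 in KO livers (1 of 5). The replicate block gave 18 members on CDA-HFD, 0 on WD, 31 and 18 for the diets in WT and KO livers, and 0 for the interaction. Over all genes, the block called 1208 of 17204 as higher on CDA-HFD. For the diets it called 4080 of 16726 as lower in WT and 1003 of 16387 in KO livers. On CDA-HFD, *Pex11g* (adjusted p = 0.0707) and *Acox2* (0.102) did not pass with the block, and *Ehhadh*, *Acaa1b*, *Decr2*, *Amacr*, *Phyh*, *Acot4* and *Pipox* passed. There, 2 of 5 KO livers correlated best with the WT liver of their own number, and on WD 1 of 5.

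Of called members under all alternatives, 153 of 221 values for KO against WT on CDA-HFD kept direction and call and 68 kept direction only. In the WT diet comparison 523 of 527 kept both, 3 kept direction only and 1 reversed, *Nudt19* at 0.089 with library size only. In the KO diet comparison 277 of 340 kept both and 63 direction only. The log2 ratio of *Acaa1b* to *Acaa1a* for KO against WT on CDA-HFD, which did not pass, ranged from -0.119 to 0.031 without 1 liver, positive without KO liver 3 (0.011) or KO liver 5 (0.031). The other 3 ratio comparisons kept sign and call. The causes were not tested. Reads shared between paralogs or with antisense genes limit *Acaa1a*, *Acaa1b*, *Scp2*, *Hacl1*, *Pex14*, *Pex11g* and *Nudt19*.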
